A study of Mus musculus with 2 samples.

Results

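B cells of mouse skeletal muscle were examined in 2 single-cell RNA libraries, 1 made from quadriceps and 1 from diaphragm. A cell barcode was taken as a B cell when it held at least 1000 unique molecular identifiers (UMIs, each a count of 1 captured RNA molecule), at most 25% mitochondrial UMIs, and at least 3 UMIs of Cd79a and Cd79b together. It also had to hold no UMI of the T cell genes Cd3d, Cd3e and Cd3g and none of Pdgfra, a receptor of fibro-adipogenic progenitors (FAPs, the connective tissue progenitors of muscle). This rule found 251 B cells among 7658 barcodes, 206 in quadriceps and 45 in diaphragm.

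The animals were C57BL/6J mice, given no treatment in the labels, and neither their age nor their sex was stated. Quadriceps, a limb muscle, and diaphragm, the main breathing muscle, were minced and digested with collagenase B and dispase II, the mononuclear cells were collected on a Lympholyte-M density gradient, and viable cells were sorted by light scatter. Cells of several animals were combined for each tissue, 10 mice being named for the experiment, so that each tissue is 1 library and holds no replicate. The gradient and the scatter gate both act on cell types unequally, and the shares of cells given here are shares of what passed them.

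B cells are the lymphocytes that carry an antibody on their surface as the B cell receptor (BCR). The antibody chains bind antigen, and the paired proteins CD79A and CD79B carry the signal into the cell through kinases such as LYN, SYK and BTK. A B cell also takes up antigen and shows it to T cells on major histocompatibility complex (MHC) class II molecules. Most mature B cells recirculate through blood and lymph as follicular cells, while B-1 cells, marginal zone cells and antibody-secreting plasma cells differ from them in the genes they use.

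The quadriceps file held 5159 barcodes and 50854519 UMIs, and the diaphragm file held 2499 barcodes and 28545242 UMIs, with medians of 9719 and 11853 UMIs per barcode. B cells held fewer UMIs than most other cells. Those of quadriceps had a median of 2999.5 UMIs (1063 to 10012) and 1165 genes, and those of diaphragm a median of 4846 UMIs (1302 to 12045) and 1471 genes. The quadriceps median was thus under that of diaphragm, and the B cell UMIs summed to 651631 and 249355. The mitochondrial share of B cells had a median of 6.20% in quadriceps and 6.63% in diaphragm. At a limit of 5%, 31 of the 206 quadriceps B cells and 4 of the 45 diaphragm B cells would remain. The libraries shared 5 barcode sequences, and no B cell was among them.

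The cells were chosen by their Cd79a, Cd79b, Cd3 and Pdgfra UMIs, so values of these genes are given as a description. The threshold fell in an empty stretch of the distribution. Among barcodes without a Cd3 or Pdgfra UMI, 26 in quadriceps and 2 in diaphragm held 1 Cd79 UMI, 4 and 0 held 2, and none held 3. The lowest B cell held 4 in either tissue, the medians were 15 and 18, and the highest values were 45 and 57. Every B cell with 4 or more Cd79 UMIs also held a UMI of Ms4a1, Ly6d or Fcmr, while 2 of the 4 quadriceps barcodes just outside the threshold did. A UMI of Pdgfra removed 16 further quadriceps barcodes with enough Cd79 UMIs, at a median of 9934.5 UMIs, and all 16 held one of the same 3 markers. A Cd3 UMI removed 2 barcodes in quadriceps and 1 in diaphragm.

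**Figure D1:**
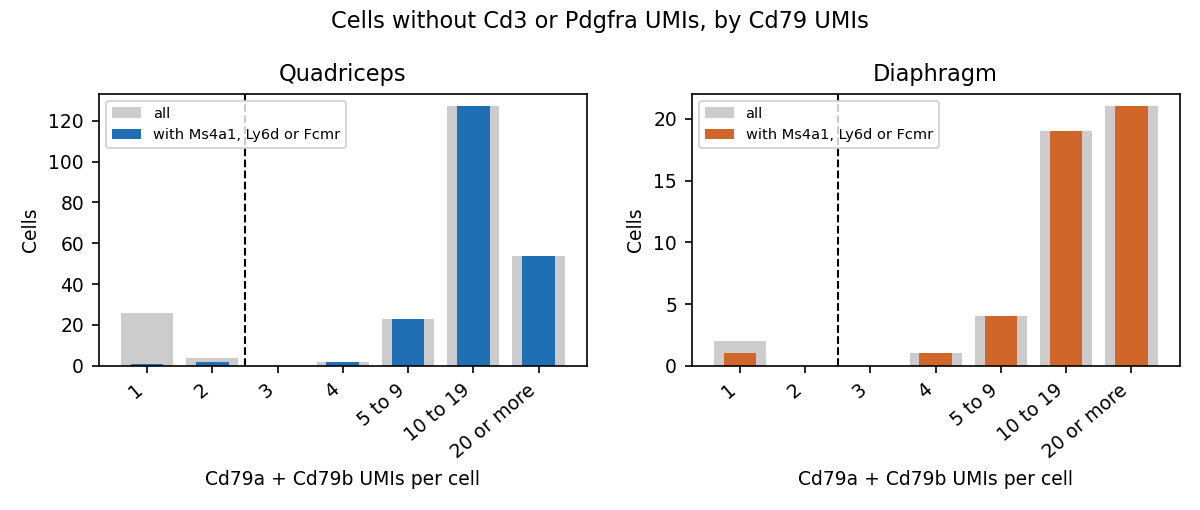
Number of cells (vertical axis) by the UMIs of Cd79a and Cd79b together (horizontal axis), among barcodes without a Cd3 or Pdgfra UMI and with at least 1 Cd79 UMI; grey bars are all such barcodes, coloured bars those with a UMI of Ms4a1, Ly6d or Fcmr, and the dashed line is the threshold. No barcode held 3 Cd79 UMIs, and the 206 quadriceps and 45 diaphragm B cells lie to the right.

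Markers that the rule did not name are also given as a description, since they were chosen with earlier results of these data known. Ms4a1, which encodes the surface protein CD20, had 1001 CPM (the gene's UMIs per 1000000 UMIs of the whole class; 95% exact Poisson interval 925 to 1080) in quadriceps B cells and 858 CPM (747 to 981) in diaphragm B cells. Ly6d, an early B lineage surface protein, had 1871 and 2134 CPM, and Fcmr, the receptor for IgM, 902 and 654 CPM. All 3 were at 0 UMIs in the T cells of both tissues, which numbered 116 and 56 and were taken as barcodes with at least 3 Cd3 UMIs and none of Cd79a, Cd79b or Pdgfra. Intervals here and below cover counting error only.

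A UMI of Ms4a1 was found in 89.3% of quadriceps and 86.7% of diaphragm B cells. After each cell had been thinned to 1000 UMIs, so that depth was equal, the shares were 56.8% (95% Clopper-Pearson interval 49.7 to 63.7) and 35.6% (21.9 to 51.2). The thinned share of Ly6d was 74.3% (67.7 to 80.1) in quadriceps and 82.2% (67.9 to 92.0) in diaphragm. The intervals of the tissues overlapped for both genes, and the share of T cells with a UMI was 0 in each case. The median depth of T cells was 5062 and 5528.5 UMIs, above that of B cells.

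Most genes of other cell types were at or near 0. Of the T cell markers, Cd3d, Cd3e, Cd3g (by the rule), Cd4, Cd8a, Cd8b1, Cd28 and Bcl11b had no UMI in any B cell, and only Cd2 passed 100 CPM, at 318 CPM in quadriceps and 293 CPM in diaphragm against 223 and 246 CPM in T cells. The 13 myeloid markers summed to 12 UMIs in quadriceps and 4 in diaphragm, with Csf1r, C1qa and Mrc1 at 0 in both. The 9 natural killer (NK) cell markers summed to 88 UMIs in quadriceps, of which 1 cell held 83, and to 0 in diaphragm. Pf4 and Ppbp of platelets were at 0 in both tissues, the 7 muscle fibre markers summed to 4 and 0 UMIs, and 5 of the 7 plasmacytoid and dendritic cell markers, among them Siglech and Ccr9, were at 0 in each tissue. Of that list Bst2, a membrane protein induced by interferon in many cell types, had 28 UMIs in 22 quadriceps cells and 26 UMIs in 16 diaphragm cells, a log2 difference of 1.26.

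RNA of the most abundant muscle cells was seen at a low level. The FAP markers Dcn and Col3a1 had 147 and 106 CPM in quadriceps B cells and 160 and 76.2 CPM in diaphragm B cells, against 103 and 60.1 CPM and 134 and 63.9 CPM in the T cells of the same libraries. In the FAPs themselves Dcn had 21305 CPM in quadriceps and 18942 CPM in diaphragm. Summed over the 5 smooth muscle markers, B cells held 485 CPM in quadriceps and 8.02 CPM in diaphragm, and T cells 3307 and 12.2 CPM. Free RNA in the droplets was not measured, and its part in these values was not tested.

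**Figure D2:**
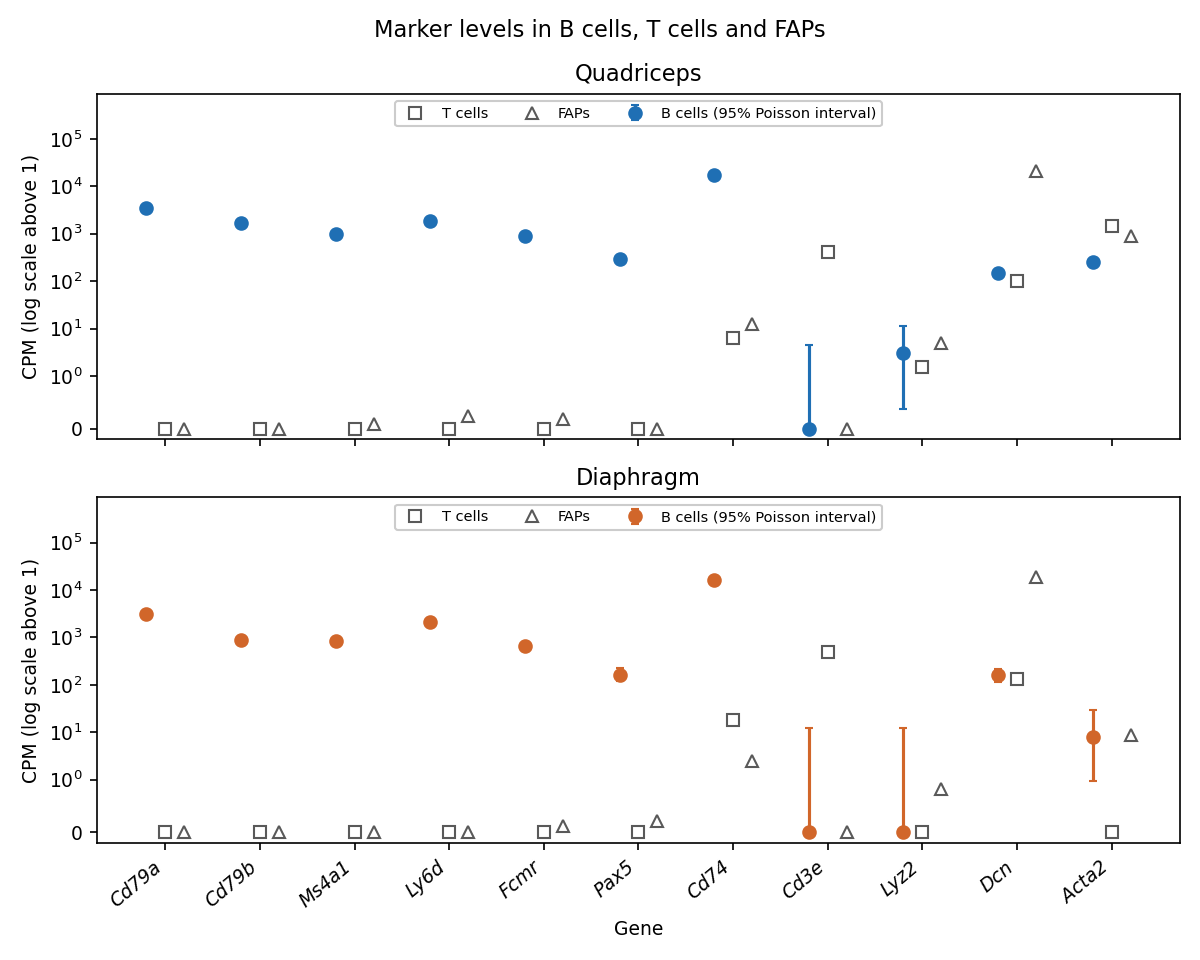
Level of 11 marker genes in CPM (vertical axis, linear below 1 and logarithmic above) in B cells (filled circles with 95% Poisson intervals), T cells (squares) and FAPs (triangles) of quadriceps (upper) and diaphragm (lower). Cd79a to Pax5 lie at 0 in the T cells of both tissues and at 164 CPM or more in B cells, and Acta2 is at 253 CPM in quadriceps B cells against 8.02 CPM in diaphragm B cells.

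B cells were 4.44% (95% Clopper-Pearson interval 3.87 to 5.08) of the 4635 quadriceps barcodes that passed the depth and mitochondrial limits and 1.90% (1.39 to 2.53) of the 2370 diaphragm barcodes. The share was higher in quadriceps, and the intervals did not overlap. As a share of B and T cells together, B cells made up 64.0% (58.5 to 69.2) of 322 cells in quadriceps and 44.6% (34.7 to 54.8) of 101 cells in diaphragm, again without overlap. With 1 library per tissue, the tissue and the library cannot be told apart, and no test of a difference between tissues was possible.

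The receptor and its signalling chain came first among the roles examined. Of 14 genes of the receptor chains listed, 2 were matched, Cd79a and Cd79b, and the antibody heavy and light chain genes were not analysed here. Cd79a (chr7:24897381-24902197, GRCm38) had 3505 CPM (3363 to 3652) in quadriceps and 3056 CPM (2843 to 3281) in diaphragm, and was found in all B cells since the lowest value was 1 UMI. Cd79b (chr11:106311341-106314762) had 1664 CPM in quadriceps and 882 CPM in diaphragm, a log2 difference of -0.91 for diaphragm over quadriceps. These levels are those of genes that chose the cells.

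Kinases and adaptors of the receptor were moderate in level in either tissue. Of 16 signalling genes, 9 reached 100 CPM in at least 1 tissue, and 1 of the 9, Nfatc1, was 2-fold or more apart. Syk had 305 and 184 CPM in quadriceps and diaphragm, Lyn 173 and 241 CPM, Blnk, the adaptor that links the kinases to calcium release, 167 and 132 CPM, and Prkcb 236 and 205 CPM. Nfatc1, a calcium-driven transcription factor, had 43.0 CPM (28 UMIs) in quadriceps and 116 CPM (29 UMIs) in diaphragm. Its ratio of diaphragm to quadriceps had a counting interval of 1.55 to 4.72.

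Coreceptors and inhibitory receptors set the threshold at which a receptor signals. All but 1 of the 16 that reached 100 CPM were within 2-fold between the tissues. Cd37, a tetraspanin of the B cell surface, had 681 and 646 CPM, and Cd22, an inhibitory lectin, 175 and 88.2 CPM. Siglecg, a second inhibitory lectin, had 391 CPM (345 to 442) in quadriceps and 172 CPM (125 to 232) in diaphragm, a log2 difference of -1.18. The median log2 difference of these 16 genes was -0.53, against -0.02 over all 1329 genes that reached 100 CPM in the B cells of either tissue.

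Genes of antigen presentation were abundant in both tissues and within 2-fold of each other, summing to 30729 CPM in quadriceps and 28890.5 CPM in diaphragm. Cd74, the invariant chain that guides MHC class II molecules, had 16902 CPM (16588 to 17221) in quadriceps and 16274 CPM (15777 to 16783) in diaphragm, and every B cell held it. H2-Aa had 4208 and 3690 CPM, H2-Ab1 3272 and 2976 CPM, and H2-Eb1 3823 and 3710 CPM. The peptide editors H2-DMb2 and H2-Ob, typical of B cells, had 563 and 525 CPM and 488 and 325 CPM. None of the 11 genes of this list in range was 2-fold apart, and the ratio of diaphragm to quadriceps for Cd74 had a counting interval of 0.93 to 1.00. The costimulatory gene Cd86 had 69.1 and 116 CPM. Cd80 had 1 and 3 UMIs.

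Transcription factors of the B lineage were present throughout. Ebf1, which starts the B cell programme, had 2043 and 1207 CPM and was also found in FAPs, at 839 and 616 CPM. Pax5, which holds B cell identity, had 293 and 164 CPM and was at 0 in T cells. Mef2c had 1154 and 942 CPM, Foxp1 862 and 598 CPM, and Pou2af1, a coactivator at octamer sites, 189 and 249 CPM. Of 18 factors in range, 5 were 2-fold or more lower in diaphragm and none was higher. These were Klf2 (2199 and 814 CPM), a factor of quiescent recirculating lymphocytes, Id3 (226 and 52.1 CPM), Zeb2 (180 and 52.1 CPM), Ikzf3 (176 and 60.2 CPM) and Bcl11a (244 and 116 CPM). The log2 difference of Bcl11a was -1.06, at the edge of the 2-fold limit, and it passed in 10 of 15 alternative settings. Without the 1 diaphragm cell that held all Jchain UMIs, described below, 4 of the 18 were lower.

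Over all genes, 71 of the 1329 in range were 2-fold or more higher in diaphragm B cells (5.34%) and 102 were 2-fold or more lower (7.67%). These are shares by size of difference only, with no test. The 5 transcription factors that were lower stand against that 7.67%, and the 1 signalling gene that was higher against the 5.34%.

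**Figure D3:**
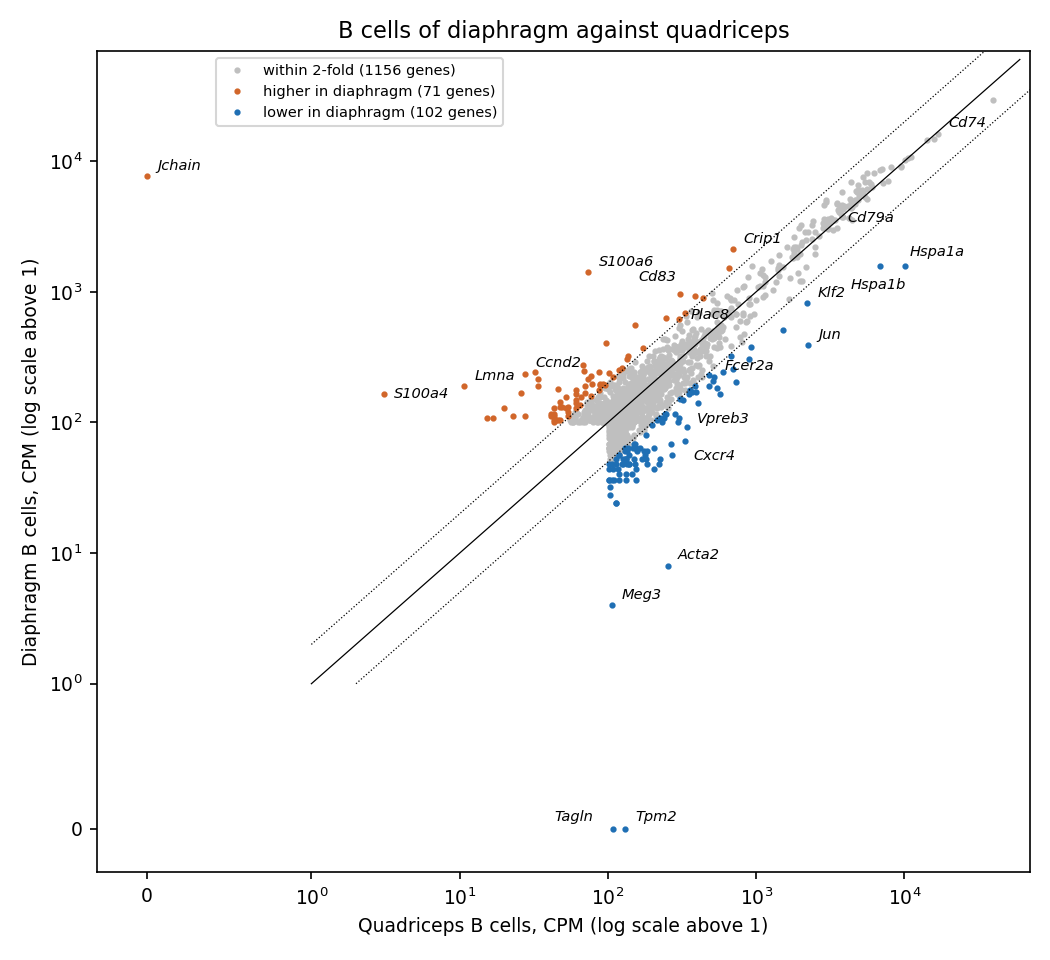
Each point is 1 of 1329 genes, with its CPM in quadriceps B cells on the horizontal axis and in diaphragm B cells on the vertical axis (linear below 1, logarithmic above); the solid line marks equal levels and the dotted lines a 2-fold difference. Orange points are the 71 genes higher in diaphragm and blue points the 102 lower, and Cd74 and Cd79a lie near the line of equal levels.

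Homing and survival receptors differed gene by gene. Ccr7, which draws lymphocytes to lymph nodes, had 511 CPM (458 to 569) in quadriceps and 866 CPM (755 to 990) in diaphragm. Cxcr4, the receptor for the chemokine CXCL12, had 333 CPM (290 to 380) in quadriceps and 72.2 CPM (42.8 to 114) in diaphragm, where 14 of 45 cells held a UMI. Cxcr5, the follicle homing receptor, had 75.2 and 108 CPM. Cd44, an adhesion receptor raised on activated lymphocytes, had 41.4 CPM (27 UMIs) and 112 CPM (28 UMIs).

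Among survival genes, Tnfrsf13c, the receptor for the B cell survival factor BAFF, had 307 CPM in quadriceps and 152 CPM in diaphragm. Bcl2, which blocks cell death, had 183 and 60.2 CPM, and Ltb, a cytokine that organises lymphoid tissue, 695 and 257 CPM. All 3 were 2-fold or more lower in diaphragm, out of 6 in range, where 7.67% of all genes in range were. The log2 difference of Tnfrsf13c was -1.01, at the edge of the 2-fold limit, and it passed in 5 of 15 alternative settings. Without the Jchain cell it was -0.97, and 2 of the 6 genes were 2-fold or more lower. Mcl1 had 734 and 537 CPM and Il2rg 307 and 325 CPM.

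The subtypes of B cell were read from short lists of genes. Of the 4 follicular genes in range, 3 were 2-fold or more lower in diaphragm, against 7.67% of all genes in range, while Cxcr5 (above) had a log2 difference of 0.52. Fcer2a, the low-affinity IgE receptor CD23 of follicular B cells, had 520 CPM (466 to 579) in quadriceps and 225 CPM (170 to 292) in diaphragm. It was found in 152 of 206 and 25 of 45 cells, and after thinning in 39.8% (33.1 to 46.8) and 20% (9.58 to 34.6). Cd55 had 509 and 209 CPM.

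Vpreb3, a chaperone-like protein of the surrogate light chain family kept in newly formed B cells, had 339 CPM (296 to 387) in quadriceps and 92.2 CPM (58.5 to 138) in diaphragm. It was found in 101 of 206 quadriceps cells and 11 of 45 diaphragm cells. Cd93, a marker of immature B cells named after its values were seen, had 24 UMIs in 18 quadriceps cells and none in diaphragm, which is at least 3.06-fold lower at a floor of 3 counts. Cd24a had 356 and 345 CPM. The early genes Igll1, Dntt and Vpreb2 were at 0 in both tissues, and Rag1 had 2 and 0 UMIs.

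Vpreb3 lies on chromosome 10. Its 250 bases upstream of the RefSeq start (GRCm38.p6, chr10:75948050-75948299, plus strand) are shown because they hold the octamer ATTTGCAT. That motif is bound by POU2F2 and its coactivator POU2AF1. In GENCODE M21 the gene spans chr10:75943057-75949657, so the window lies inside that longer gene and not upstream of its first base. The octamer is in capitals and lies 45 to 38 bases before the RefSeq start.

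Vpreb3: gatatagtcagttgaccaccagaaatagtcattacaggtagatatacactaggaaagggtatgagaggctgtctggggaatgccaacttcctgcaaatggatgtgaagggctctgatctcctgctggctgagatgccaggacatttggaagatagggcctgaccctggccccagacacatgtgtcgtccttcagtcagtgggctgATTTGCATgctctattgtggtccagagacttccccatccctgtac

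On either strand, the octamer was found in 526 of 32851 such windows (1.6%). It was in none of the 17 B lineage factors and none of the 14 coreceptors with a window, and in Blnk and Prkcb among 11 signalling genes. A match is a description of the letters and not of a bound site.

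Genes tied to B-1 and marginal zone cells were read next. Plac8, the 1 gene of the B-1 list in range, had 387 CPM (340 to 438) in quadriceps and 930 CPM (815 to 1058) in diaphragm, and was found in 47.6% and 77.8% of cells. After thinning its share was 24.8% (19.02 to 31.2) and 48.9% (33.7 to 64.2), without overlap of the intervals. The other B-1 genes were sparse, and they are named here after their values were seen. Ctla4 had 10 UMIs in 3 diaphragm cells and none in quadriceps, at least 8.71-fold higher at a floor of 3 counts. Of the 10 UMIs, 1 cell held 6. Zbtb32 had 8 UMIs against 1, a ratio of 20.9 with a counting interval of 2.80 to 928. Bhlhe41 had 13 UMIs in each tissue, out of 651631 B cell UMIs in quadriceps and 249355 in diaphragm, so its level was higher in diaphragm. Cd5 had 1 UMI in quadriceps and 2 in diaphragm. Of the marginal zone genes, Cr2, the complement receptor CD21, had 120 and 76.2 CPM, and Mzb1, an endoplasmic reticulum chaperone that plasma cells also use, had 338 and 649.7 CPM.

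Plasma cells are known for their secreted antibody and its joining chain, Jchain (chr5:88519809-88527891). All 1911 Jchain UMIs of diaphragm B cells lay in 1 cell, and quadriceps B cells had none. That cell had 12045 UMIs, the most of the 45, and was the 1 diaphragm B cell that Scrublet, a doublet caller, marked. It held 55 UMIs of Mzb1, 15 of Xbp1, 7 of Derl3, 5 of Sdc1 and 3 of Tnfrsf17, all genes of antibody secretion or plasma cell survival. It held no UMI of Fcmr, Pax5, Fcer2a or H2-Aa, while Cd79a, Cd79b and Ly6d stood at 15, 8 and 55 UMIs. Cd74 had 134 UMIs in it, H2-Ab1 4, H2-Eb1 2 and Ms4a1 1. The cell also held 35 of the 97 Jun UMIs of diaphragm B cells. Without it, Mzb1 had 107 UMIs in diaphragm and the counts of genes past 2-fold were 69 higher and 101 lower.

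Germinal centre and proliferation genes were sparse, and most age-associated genes were at or near 0. Mef2b, a transcription factor of germinal centre B cells, had no UMI in either tissue, which allows up to 3 counts, nor had Gcsam. None of the 7 germinal centre genes and none of the 8 proliferation genes reached 100 CPM. Mki67 had 0 and 1 UMI, and Cdk1, Ccnb2 and Birc5 had none. Pcna, which clamps DNA polymerase to its template, had 38 UMIs in 34 quadriceps cells and 11 UMIs in diaphragm. Of the 4 age-associated genes, Itgax and Cxcr3 were at 0, and Zbtb20, a zinc finger transcription factor, was the 1 in range, with 132 UMIs and 203 CPM in quadriceps and 80 UMIs and 321 CPM in diaphragm. Among innate sensors, Tlr9 was at 0 in both tissues, whereas Ly86 had 304 and 273 CPM and Unc93b1, the chaperone of endosomal receptors, 269 and 261 CPM. Of 12 cytokine genes only Tgfb1 passed 100 CPM, at 241 and 249 CPM. All 3 Il10 UMIs were in the Jchain cell.

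The 10 genes whose counting intervals lay farthest above equality in diaphragm were Jchain, S100a6, S100a4, Lmna, Ccnd2, Odc1, Crem, Atf3, Hilpda and Lgals1. S100a6 (chr3:90612882-90624181), a small calcium-binding protein, had 48 UMIs and 73.7 CPM (54.3 to 97.7) in quadriceps and 353 UMIs and 1416 CPM (1272 to 1571) in diaphragm. The ratio was 19.2 (14.2 to 26.6). T cells of the 2 tissues had 703 and 2359.8 CPM and FAPs 6203 and 3061 CPM, so that S100a6 was lower in diaphragm than quadriceps FAPs. S100a4, its neighbour on chromosome 3, had 2 and 41 UMIs. Of the 41, 1 cell held 65.9%. Hilpda, a lipid droplet protein, had 10 and 27 UMIs, and 1 cell held 59.3% of the 27. Of the 17 Atf3 UMIs of quadriceps, 1 cell held 41.2%.

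S100a6 was spread unevenly among diaphragm B cells. It had 0 UMIs in 17 of the 45, 1 to 3 UMIs in 14 and 4 or more in 14, of which 12 held 7 or more and the highest 61. No quadriceps B cell held more than 2. The 14 cells were taken after the values were seen and describe a range, not a cell type, and 4 cells held 3 or 4 UMIs, next to the limit. They had a median of 7473.5 UMIs, against 3640 in the other 31.

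The 14 cells with S100a6 held B cell genes at levels near those of the others and differed in several further genes. Cd79a stood at 3208 CPM in them and 2940.5 CPM in the other 31, and Ms4a1 at 1125 and 656 CPM, and all 14 held both. Crip1, a small LIM protein also named after its values were seen, had 3747 CPM (3390 to 4132) in the 14 cells and 903 CPM (753 to 1073) in the others. Vim, an intermediate filament gene, had 1599 and 360 CPM, Plac8 1274 and 670 CPM, Ccnd2 428 and 91.7 CPM, and Cd9 186 and 28.2 CPM. All 8 Zbtb32 UMIs of diaphragm lay in 4 of the 14 cells. Fcer2a had 140 CPM (78.1 to 230) in the 14 cells and 289 CPM (208 to 392) in the others, and Cr2 37.2 and 106 CPM. Lyz2 was at 0 and Col3a1 at 55.8 CPM in the 14 cells, against 91.7 CPM in the others, where Lyz2 was also at 0. Summed over the 8 FAP markers, the 14 cells held 474 CPM (353 to 624) and the others 790 CPM (650 to 950). The 13 myeloid markers summed to 2 UMIs in 1 cell of the 14 and to 2 UMIs in 1 cell of the others. The part of other cells' RNA in these values was not tested.

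**Figure D4:**
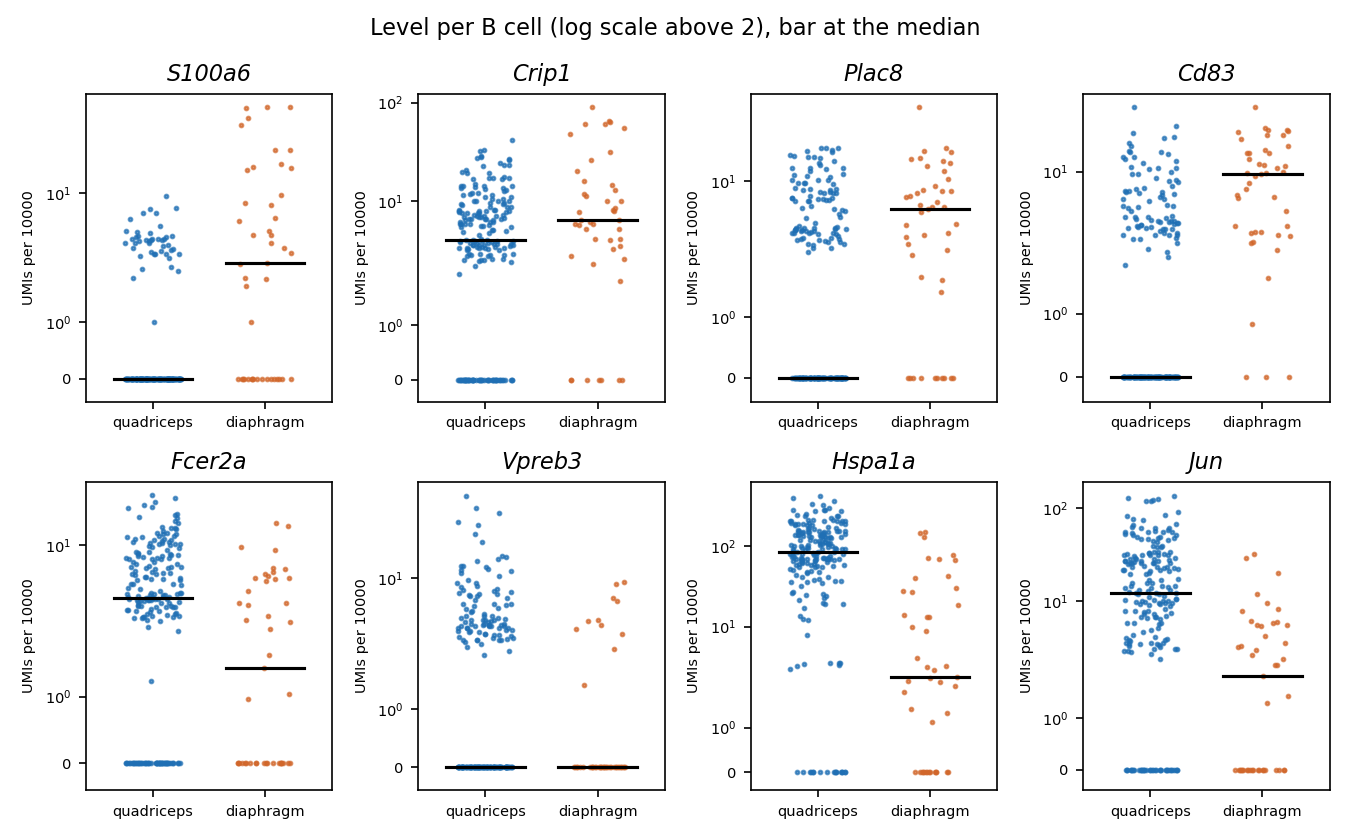
Level of 8 genes in each B cell as UMIs per 10000 (vertical axes, linear below 2 and logarithmic above), for the 206 quadriceps cells (blue) and the 45 diaphragm cells (orange); the black bar is the median and points are spread sideways for sight. S100a6 has a median of 0 in quadriceps and 2.08 in diaphragm with single cells up to 69.3, and Hspa1a has medians of 83.8 and 2.39.

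Activation genes differed in both directions. Cd83, a surface protein of activated B cells, had 201 UMIs and 308 CPM (267 to 354) in quadriceps and 240 UMIs and 962 CPM (845 to 1092) in diaphragm. It was found in 87 of 206 and 42 of 45 cells, and after thinning in 19.4% (14.2 to 25.5) and 51.1% (35.8 to 66.3). Rel, an NF-kappaB subunit that lymphocytes use, had 331 and 694 CPM, Nr4a1, induced by receptor signalling, 173 and 373 CPM, and Atf3, a stress-induced factor, 26.1 and 168 CPM. In the opposite direction Cd69, an early activation receptor, had 402 CPM in quadriceps and 140 CPM in diaphragm, Dusp2 919 and 381 CPM, Klf6 569 and 164 CPM, and Btg2 678 and 321 CPM. In all, 4 of the 24 genes of this list in range were 2-fold or more higher in diaphragm and 5 were lower, beside 5.34% and 7.67% of all genes in range.

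Jun, a subunit of the AP-1 factor, was the gene of this list farthest below equality in diaphragm. It stood at 2237 CPM (2124 to 2355) in quadriceps B cells and 389 CPM (315 to 475) in diaphragm B cells, a ratio of 0.17 (0.14 to 0.21). Per cell it ranged from 0 to 136 UMIs per 10000 in quadriceps with a median of 12.3, and from 0 to 32.4 in diaphragm with a median of 1.81. Its partners lay within 2-fold between the tissues, with Junb at 2046 and 2398 CPM, Jund at 2122 and 2859 CPM, and Fos at 396 and 646 CPM. The Jchain cell held 102 of the 161 Fos UMIs of diaphragm, and without it Fos stood at 249 CPM there, so that its log2 difference turned from 0.70 to -0.67. The same cell held 40 of the 65 Dusp1 UMIs, and without it the log2 difference of Dusp1 went from -0.50 to -1.80. Over the 24 genes, 4 were then higher and 7 lower in diaphragm.

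The 10 genes farthest below equality in diaphragm were Tpm2, Acta2, Tagln, Hspa1a, Jun, Meg3, Hspa1b, Cxcr4, March1 and Ppp1r15a. Hspa1a and Hspa1b, which encode the inducible chaperone HSP70, were the most abundant of them. Hspa1a had 10159 CPM (9916 to 10407) in quadriceps B cells and 1564 CPM (1413 to 1727) in diaphragm B cells. Hspa1b had 6869 CPM (6669 to 7073) and 1576 CPM (1424 to 1740). The genes are near-identical copies, so the split of UMIs between them is uncertain, but both were lower in diaphragm.

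The copies lie on chromosome 17, minus strand, and their upstream windows are shown because they carry the same heat shock element. They are the 250 bases before each start (RefSeq, GRCm38.p6), chr17:34972157-34972406 for Hspa1a and chr17:34959239-34959488 for Hspa1b, identical at 247 of 250 bases. The capitals mark a match to GAANNTTC, 104 to 97 bases before the start in each.

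Hspa1a: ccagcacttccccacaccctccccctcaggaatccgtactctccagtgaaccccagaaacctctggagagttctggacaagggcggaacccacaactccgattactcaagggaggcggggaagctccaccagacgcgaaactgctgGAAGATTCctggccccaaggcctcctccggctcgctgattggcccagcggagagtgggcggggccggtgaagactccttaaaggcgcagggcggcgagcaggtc

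Hspa1b: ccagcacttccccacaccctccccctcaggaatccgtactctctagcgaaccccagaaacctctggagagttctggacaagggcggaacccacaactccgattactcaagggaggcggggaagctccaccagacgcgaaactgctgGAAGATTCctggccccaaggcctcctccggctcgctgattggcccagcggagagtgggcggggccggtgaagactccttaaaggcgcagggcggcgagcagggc

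GAANNTTC, which reads the same on both strands, was found in 2199 of 32851 windows (6.69%). Of the 10 heat shock genes 7 had a window, and 4 of these held a match, in Hspa1a, Hspa1b, Hspd1 and Hspe1. The Hspa1a and Hspa1b windows are near-identical, so their matches do not count as separate ones. Hspd1 and Hspe1 were within 2-fold between the tissues in B cells, with log2 differences of 0.32 and -0.29.

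Most quadriceps B cells held Hspa1a at a high level, whereas a minority in diaphragm did. Hspa1a stood at 20 or more UMIs per 10000 in 174 of 206 quadriceps cells (84.5%) and in 12 of 45 diaphragm cells (26.7%). That limit was chosen after the values were seen. The diaphragm cells above it had a median of 3299.5 UMIs against 5533 in those below, and a median mitochondrial share of 7.14% against 6.63%. Of the 12, 2 belonged to the 14 cells with 4 or more S100a6 UMIs. Among quadriceps B cells, the level was close on either side of a 5% mitochondrial share, with 9860 CPM (9239 to 10513) in the 31 cells up to it and 10210.1 CPM (9946 to 10479) in the 175 over it. In diaphragm it was not close, with 5072 CPM (4261 to 5992) in the 4 cells up to 5% and 1134 CPM (999 to 1283) in the 41 over it. The 4 cells included the Jchain cell, which held 32 of their 138 Hspa1a UMIs.

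The other heat shock genes differed less. Dnajb1, a cochaperone of HSP70, had 807 and 413 CPM in quadriceps and diaphragm B cells, Hsph1 373 and 205 CPM, and Hsp90aa1, the inducible HSP90, 1969 and 1199 CPM. Hspa8, the constitutive relative of HSP70, had 2477 and 2859 CPM, and Hspa5, its relative in the endoplasmic reticulum, 344 and 589 CPM. Of the 10, 2 were 2-fold or more lower, 7 had a log2 difference below 0 and 3 above 0, with a median of -0.50. Without the Jchain cell Dnajb1 stood at 324 CPM in diaphragm, and 3 of the 10 were 2-fold or more lower.

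The same genes were read in T cells and FAPs of the same libraries. In FAPs, all 10 heat shock genes were higher in diaphragm, 6 of them 2-fold or more, with a median log2 difference of 1.68. Over the 1673 genes in range in FAPs, 5.08% were 2-fold or more higher in diaphragm and 2.93% lower, with a median of -0.07. In FAPs Hspa1a had 986 CPM in quadriceps and 4169 CPM in diaphragm. In T cells, 6 were above and 4 below 0, with a median of 0.43 and none 2-fold apart, while of the 1298 genes in range in T cells 13.2% were 2-fold or more higher in diaphragm and 3.62% lower, with a median of 0.24. Hspa1a had 3666 CPM in quadriceps T cells and 3050.2 CPM in diaphragm T cells. For the 24 activation genes the median log2 difference was -0.06 in B cells, 0.48 in T cells and 1.84 in FAPs. Without the Jchain cell the B cell median was -0.42. Jun was lower in diaphragm in B cells (-2.52) and T cells (-1.65) and higher in FAPs (2.39).

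**Figure D5:**
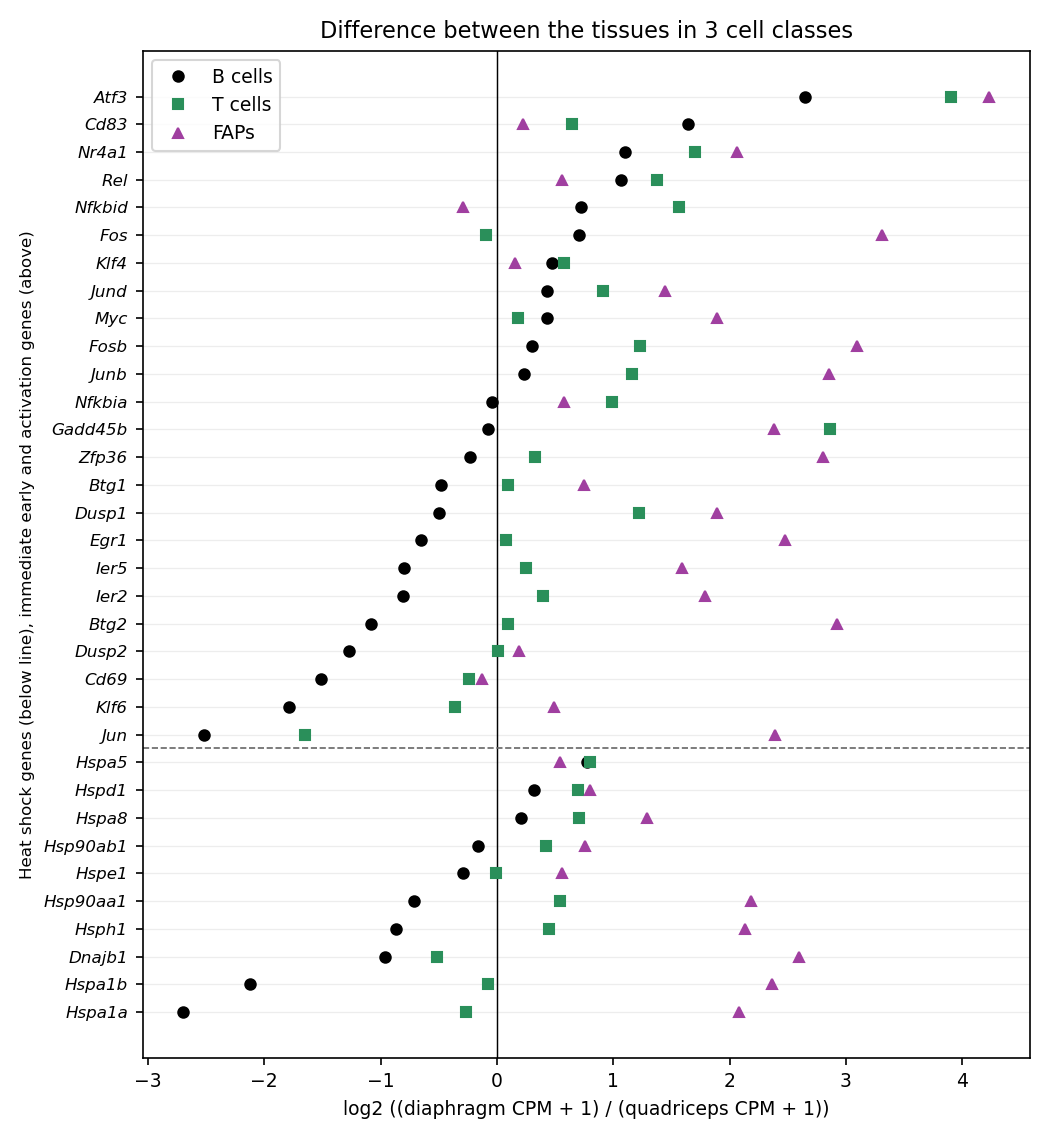
Log2 difference of CPM, diaphragm over quadriceps (horizontal axis), of the 10 heat shock genes (below the dashed line) and 24 immediate early and activation genes in range (above it), in B cells (circles), T cells (squares) and FAPs (triangles). Hspa1a and Jun lie at -2.70 and -2.52 in B cells and at 2.08 and 2.39 in FAPs.

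Tpm2, Acta2 and Tagln, which encode contractile proteins of smooth muscle, were the 3 genes farthest below equality, and they were also lower in diaphragm T cells and FAPs. Acta2 had 165 UMIs in 104 of the 206 quadriceps B cells, none with more than 4, and 2 UMIs in 1 diaphragm cell. In T cells it had 1467 CPM in quadriceps and 0 in diaphragm, and in FAPs 896 and 8.67 CPM. Tpm2 and Tagln had 85 and 70 UMIs in quadriceps and none in diaphragm, at least 10.8-fold and 8.93-fold lower at a floor of 3 counts. Meg3 rested on a single cell, which held 92.8% of its 69 quadriceps UMIs.

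March1, a ubiquitin ligase that acts on MHC class II, had 270 CPM (176 UMIs in 115 cells) in quadriceps and 56.1 CPM (14 UMIs in 9 cells) in diaphragm, and was at 0 in the T cells of both tissues. Ppp1r15a, a stress-response phosphatase subunit, had 734 and 205 CPM.

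B cells were last set beside T cells of the same tissue, which describes what the rule chose and tests nothing. Of 1154 genes in range in both tissues, 117 were 2-fold or more higher in B cells in both (10.1%) and 81 were lower in both (7.02%). The 10 genes farthest above were H2-Aa, Cd79a, Ly6d, Cd79b, Ms4a1, Cd74, H2-Ab1, Fcmr, H2-DMb2 and H2-Eb1. Those farthest below were Cd3g, Cd3d, Cd3e, Bcl11b, Cd28, Il7r, Cd8b1, Tcf7, Cd247 and Cxcr6. Il7r, the receptor for a cytokine that T cells need, had 1 UMI in quadriceps B cells and none in diaphragm B cells, against 607 and 578 CPM in T cells. All 9 MHC class II and costimulation genes in range, 10 of 13 coreceptors and 10 of 14 lineage factors were higher in B cells, while none of the 10 heat shock genes was 2-fold apart in the same direction in both tissues.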

How the data were processed

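UMI counts per gene and barcode were deposited by the authors as raw count matrices, 1 per library, made with Cell Ranger 3.0.0 against mm10 (the submitters' processing notes also name Seurat, whose output was not used here). The barcodes were those that passed the authors' cell calling, and no normalised values were used. Rows were 27998 genes. B cell members and gene lists (31 lists, 295 of 310 genes matched) were chosen with earlier results of these data known. UMIs were summed over the B cells of each library and scaled to CPM. Log2 differences used a pseudocount of 1 CPM, and a gene was in range at 100 CPM or more in the higher tissue. Exact Poisson intervals, exact conditional intervals of a ratio of counts and Clopper-Pearson intervals were computed at 95% (scipy 1.17.1, numpy 2.4.6). The interval and fold code was tested on simulated data.

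Genes named were list members with 100 CPM or more in either tissue, list genes at 0, and the 10 per direction whose ratio interval lay farthest from 1. For B cells over T cells they were the 10 per direction with the largest smaller difference of the 2 tissues. Exceptions are said where they stand. FAPs were barcodes with at least 3 Pdgfra UMIs and no Cd3 or Cd79 UMI. Positions are from GENCODE M21 (GRCm38), and promoter windows from RefSeq. No doublet caller was applied to the values reported. Scrublet (scanpy 1.11.5) was run as an alternative, as were other limits, scalings (edgeR 4.0.16 TMM factors) and thinning. Some list genes are counted in the lists but not reported here by name.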

Additional observations from a re-analysis of the deposited data

Results flagged for a closer look

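Of the 147 listed or named genes in range, 45 were 2-fold or more apart between the tissues in B cells. Over all 1329 genes in range, 5.34% were 2-fold or more higher in diaphragm and 7.67% lower. The 147 include the 10 genes per direction picked in this same comparison for intervals farthest from 1. Their share past 2-fold is therefore raised by that choice. In 8 of the 45 the difference was 2-fold or more the other way in FAPs of the same libraries. FAPs of either tissue had at least 100 CPM for these 8. How often this holds over all genes in range was not counted. The difference between the classes was not tested, since each tissue is 1 library. The log2 difference of diaphragm over quadriceps was -2.52 in B cells and 2.39 in FAPs for Jun, -1.08 and 2.92 for Btg2, -2.70 and 2.08 for Hspa1a, -2.12 and 2.36 for Hspa1b, -1.84 and 1.90 for Ppp1r15a, and -2.09 and 1.31 for Id3. It was 4.25 and -1.02 for S100a6 and 5.35 and -4.03 for S100a4. In T cells the log2 difference was 1.74 for S100a6, 2.18 for S100a4 and -1.65 for Jun. There it was -0.27 for Hspa1a, -0.08 for Hspa1b and -0.22 for Ppp1r15a. T cell values of Btg2 and Id3 are not given here. B cells had a median of 2999.5 UMIs in quadriceps and 4846 in diaphragm, and FAPs 10847.5 and 12618. Of the B cells, 85.0% in quadriceps and 91.1% in diaphragm were over a 5% mitochondrial share, against 23.7% and 24.0% of the FAPs. The part of either in the result was not tested. No group had more than 1 library, so no library could be compared with others of its group.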

How the results depend on the processing

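The B cell share stayed higher in quadriceps under all 9 alternatives, although it moved with the mitochondrial limit. In quadriceps it was 1.43% at a 5% limit and 5.95% at a 10% limit, and in diaphragm 0.24% at 5%. The counts of genes past 2-fold between the tissues, 71 higher and 102 lower in diaphragm, became 479 and 428 at the 5% limit, which leaves 4 diaphragm cells with 27209 UMIs. They became 200 and 215 with cells thinned to 1000 UMIs (added after seeing the data), 27 and 44 at a minimum of 200 CPM, and 1217 and 3850 with no minimum. With edgeR TMM factors they were 84 and 81. Genes past 2-fold in both tissues between B and T cells, 117 higher and 81 lower, became 60 and 41 at 200 CPM and 928 and 1173 with no minimum.

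Of 45 named or listed genes past 2-fold between the tissues, 39 kept their direction in all 15 alternatives and 20 stayed past 2-fold in all. Dropping the mitochondrial limit and adding an upper UMI limit kept the same B cells, so these alternatives could not change a difference. Removing Scrublet calls and removing the Jchain cell left the same 44 diaphragm cells. At the 5% limit the log2 difference turned for Ccnd2 (-3.53), Nfatc1 (-0.19), Nr4a1 (-7.11) and Meg3 (5.24), and S100a4 was at 0 UMIs in both tissues (0.00). S100a6 was 0.58 there and Plac8 0.15, against 4.25 and 1.26, while Hspa1a was -0.96 and Jun -0.54, against -2.70 and -2.52. The 4 diaphragm cells at that limit included the Jchain cell, at a mitochondrial share of 4.68% and with 12045 of their 27209 UMIs. It held 35 of their 42 Jun UMIs and the only Meg3 UMI of diaphragm. Removing the barcodes that Scrublet called, or the Jchain cell (added after seeing the data), left no Jchain UMI in either tissue and brought Jun to -3.10. Scrublet called 1.98% of quadriceps barcodes and 0.0822% of diaphragm barcodes. In diaphragm it called only 2 barcodes, 1 of them the Jchain cell. No paired analysis was possible because each tissue is 1 library. With 45 diaphragm B cells, a gene at 0 there may still have up to 12.03 CPM.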
